A study of Mus musculus with 2 samples.

Results

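Complement is a cascade of plasma and tissue proteins in which the C1 complex or the lectins cleave C4 and C2, the resulting convertases cleave C3, factor B amplifies C3 cleavage through the alternative pathway, and C5 to C9 form a pore in the target membrane. Inhibitors act at each step, some secreted and others held on the surface of the host's own cells. In the central nervous system most complement RNA is known from glia, and blood vessel walls and the lining of the ventricles and central canal are surfaces where plasma or cerebrospinal fluid meets tissue. The 7 genes described here stand for these steps. C3, C4b and Cfb are components (the central C3, the C4 of the classical and lectin pathways, and factor B). Serping1 encodes the secreted C1 inhibitor, Cd55 the membrane protein that takes C3 convertases apart, Cd59a a membrane protein that blocks the final pore, and Clu the secreted chaperone clusterin, which binds the terminal complex. They were listed by name, 7 of the 24071 genes with a row in either library. No measured value was part of the rule, but the list was chosen with earlier results of these data known.

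The study sorted live CD45- CD133+ cells from the spinal cord of adult mice and made 1 droplet 3′ library from each of 2 gates: CD133+ non-traced (tdTomato-negative) and CD133+ DNGR-1 traced (tdTomato-positive). All animals were C57BL/6j, 10 to 12 weeks old and perfused with PBS, and carried Clec9a cre/cre and R26 LSLtdTomato/LSLtdTomato, so that Cre under the control of the DNGR-1 gene marks cells with a history of its expression, provided that recombination took place. The number of animals pooled for these libraries was not stated, and with 1 library a gate there was no test between them. Every interval below is a 95% exact interval and covers counting error only.

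The non-traced library held 25411 cells and 233318692 UMIs (unique molecular identifiers, each standing for 1 captured transcript), with a median of 7218 UMIs a cell. The traced library held 4825 cells and 46530507 UMIs, with a median of 8566 a cell. The libraries shared 42 cell barcodes. Cells were clustered with all 59 complement genes considered here left out of the features, and clusters were named from fixed marker lists. In the non-traced library 20029 cells were endothelial-like (12979 capillary-like, 4482 arterial-like and 2568 venous-like), 199 were pericyte-like and 1152 were ependymal-like. In the traced library 4755 cells were ependymal-like and 48 endothelial-like. The 10 endothelial markers summed to 21742 CPM (counts per 1000000 UMIs of the group) in endothelial-like cells, to 2814 in pericyte-like cells and to 367.7 and 42.35 in non-traced and traced ependymal-like cells. The 10 ependymal markers summed to 8594 and 7761 CPM in the ependymal-like cells of the non-traced and traced libraries and to 11.01 in endothelial-like cells. Groups with the markers of more than 1 type were kept apart: 1242 non-traced cells for endothelium and pericytes, 330 for these and smooth muscle, and 723 for endothelium and ependyma. An endothelial sub-cluster of 1100 cells with pericyte transcripts was left unnamed and is not among the 20029 endothelial-like cells. The tdTomato-WPRE sequence was read in 41.1% of the non-traced and 88.5% of the traced ependymal-like cells before thinning (73.1 and 317 CPM) and in 38.8% of the non-traced endothelial-like cells (65.2 CPM), so that cells of the tdTomato-negative gate held UMIs of it too.

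A level is the summed UMIs of a gene over the cells of a group, in CPM. A share of cells is given after thinning each cell to 1000 UMIs, unless stated otherwise. A gene was called different between 2 groups where the difference in log2(CPM + 1) was at least 1 (2-fold) and 1 of the groups reached 10 CPM, and the share of all genes that met the same rule in the same direction is printed beside the first count of members.

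**Figure D1:**
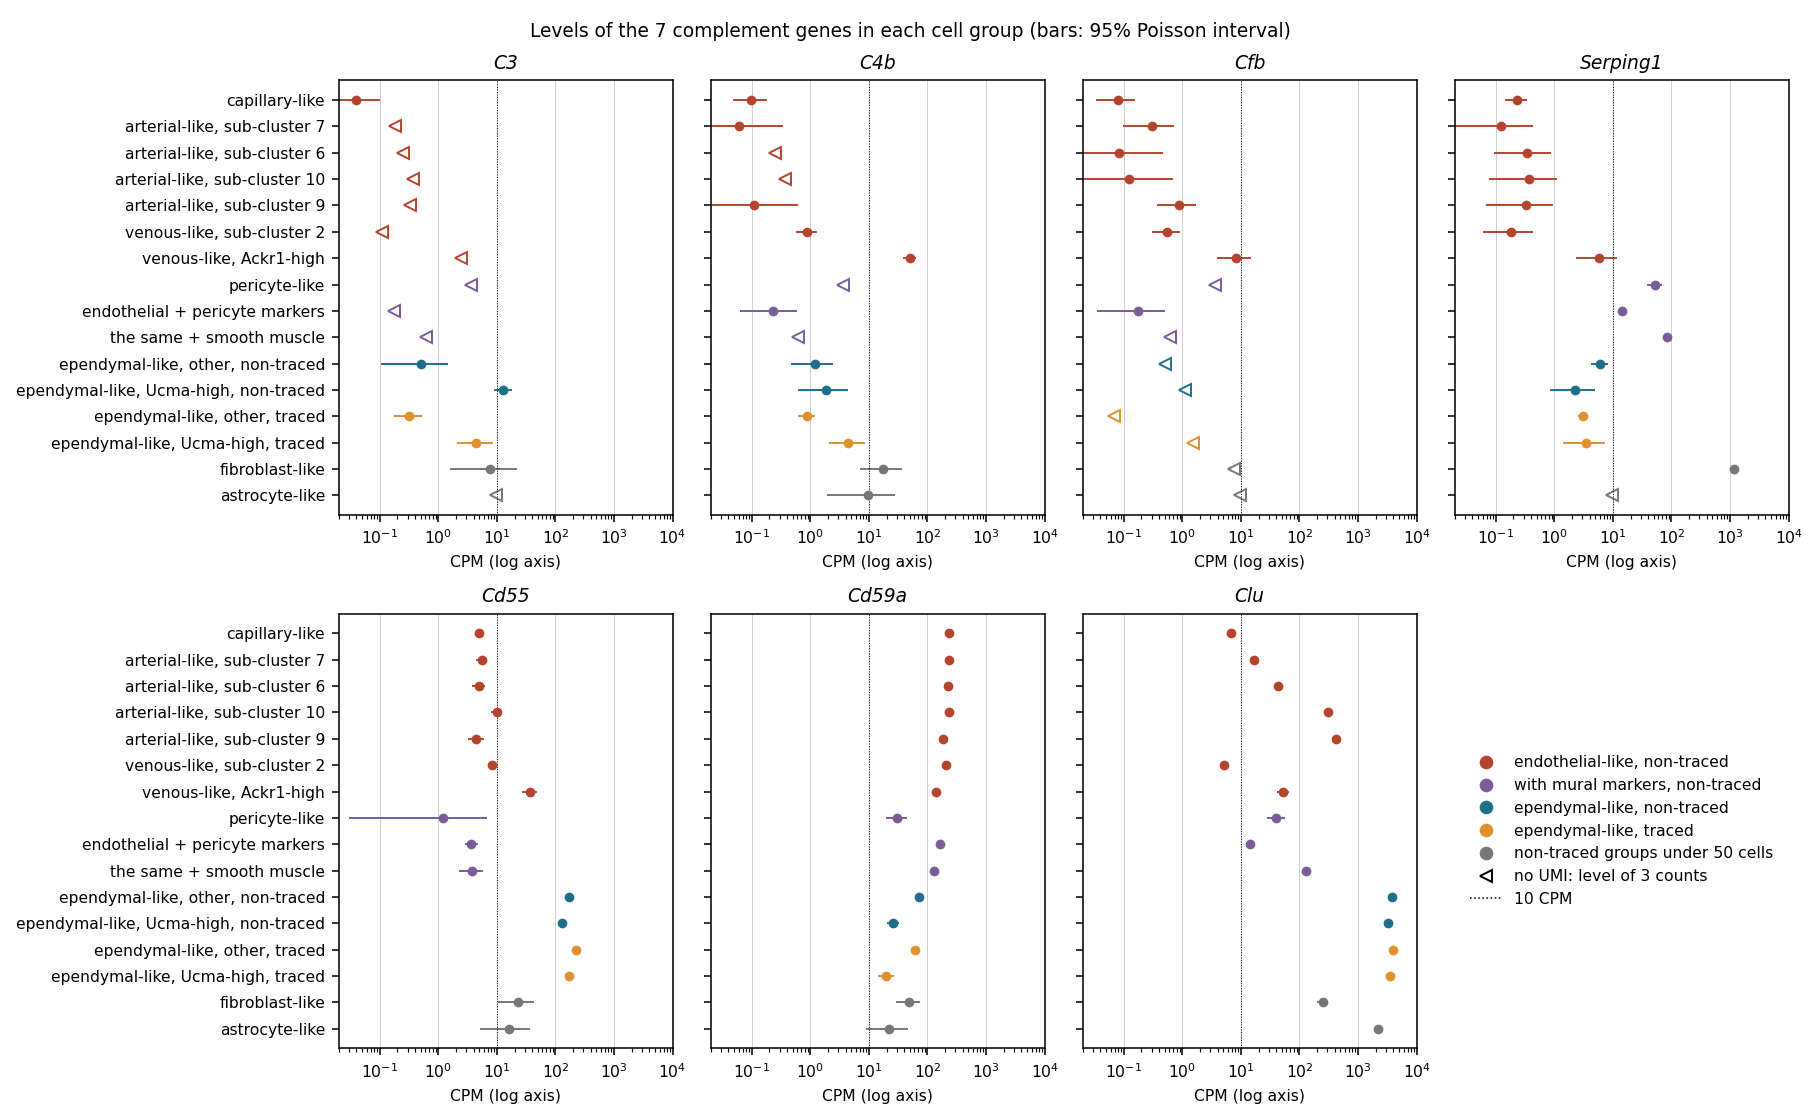
Levels of the 7 genes in CPM on a log axis, 1 panel a gene, in endothelial-like, mural, ependymal-like and minor cell groups; points are the level, bars the 95% Poisson interval, and open triangles mark groups with no UMI at the level of 3 counts. Clu and Cd55 sit highest in the ependymal-like groups, Cd59a in the endothelial-like groups, Serping1 in the fibroblast-like and mural groups, and C4b and Cfb in the Ackr1-high venous-like group.

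The 3 components were scarce in most cells. C3 was read in 95 UMIs of the non-traced and 23 of the traced library, C4b in 144 and 47, and Cfb in 53 UMIs of the non-traced library only. In the non-traced library C4b lay mostly in venous-like cells, and most of that in 1 sub-cluster of them. All 47 traced C4b UMIs lay in ependymal-like cells. Cfb had its highest level in the same sub-cluster, but most of its UMIs came from other venous-like, arterial-like and capillary-like cells. Of the 95 non-traced C3 UMIs, 37 lay in ependymal-like cells and 32 in cells with endothelial and ependymal markers. Another 19 lay in a group led by S100a9 and S100a8. Within the ependymal-like cells, the same cluster had the highest C3 level in each library.

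C3, from which both the opsonin and an anaphylatoxin are released, lies at chr17:57203970-57228136 on the minus strand of GRCm38. The 250 bases before its RefSeq start in GRCm38.p6 (chr17:57228137-57228386, minus strand) are shown because C3 differed between clusters of 1 cell type, with motif matches in capitals:

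C3: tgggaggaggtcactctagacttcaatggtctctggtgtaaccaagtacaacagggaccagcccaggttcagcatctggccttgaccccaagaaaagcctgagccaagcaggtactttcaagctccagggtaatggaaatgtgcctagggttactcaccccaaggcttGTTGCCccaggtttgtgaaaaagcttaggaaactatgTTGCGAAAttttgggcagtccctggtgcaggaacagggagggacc

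The capitals mark the RFX X-box core GTTGCC, 82 to 77 bases before the start and present on either strand in 10.43% of the 32851 RefSeq promoters cut to the same 250 bases, and the C/EBP letters TTGCGNAA, 45 to 38 bases before the start and present in 0.6697% of them. Another 6 motifs were searched on both strands and were not in this window, namely the ETS core CCGGAA, the NF-kB letters GGGANTTTC, the STAT letters TTCNNNGAA, the interferon-stimulated response core GAAANNGAA, the promoter box TATAAA and the GC box, whose letters GGGCGG recur further on. Each match is a description of letters only.

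C3 stood at 4.31 CPM (95% interval 3.04 to 5.94, 37 UMIs in 25 cells) in non-traced ependymal-like cells. It stood at 0.502 CPM (0.318 to 0.754, 23 UMIs in 20 cells) in traced ependymal-like cells. Capillary-like cells held 4 UMIs (0.0396 CPM). Arterial-like, venous-like and pericyte-like cells held none, which allows up to 0.066, 0.105 and 3.61 CPM. The order was therefore non-traced ependymal-like, traced ependymal-like, then capillary-like, with no overlap between the intervals of these 3, while the remaining classes could not be told from the capillary-like level.

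Within the ependymal-like cells, C3 was highest in cluster 13, which was picked out here after its values were seen. In the non-traced library the cluster is led by Ucma (a secreted matrix protein otherwise known from cartilage). Ucma was not among its leading genes in the traced library, where 134 of its 193 cells held a Ucma UMI before thinning. In the non-traced library the Ucma-high cluster held 34 of the 37 C3 UMIs, spread over 24 of its 369 cells with at most 6 in a cell, or 12.8 CPM (8.89 to 17.9). The 783 other non-traced ependymal-like cells held 3 UMIs, all in 1 cell (0.506 CPM), and the ratio was 25.4 (7.98 to 129). The difference of 3.20 in log2(CPM + 1) met the rule, as it did upward for 2.4% of the 9676 genes tested. In the traced library the Ucma-high cluster held 9 UMIs in 8 of 193 cells (4.49 CPM, 2.05 to 8.52) against 14 UMIs in 4562 other cells (0.32 CPM), a ratio of 14.0 (5.36 to 34.8) under the 10 CPM minimum. C3 was thus higher in the Ucma-high cluster of each library. The next highest traced cluster, cluster 17, held 5 UMIs (2.19 CPM).

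Of the 24 non-traced Ucma-high cells with a C3 UMI before thinning, 75.0% had a Ucma UMI, against 69.3% of the cells of that cluster without C3. The cluster's fibroblast gene Dcn was at 20.8 and 19.9 CPM in the 2 libraries against 1.2 and 0.7 in the other ependymal-like cells, and C3 was at 7.54 CPM (3 UMIs) in the 32 fibroblast-like cells. The summed fibroblast markers did not follow Dcn, at 35.8 CPM in the cluster against 52.3 in the other cells of the non-traced library and 41.9 against 36.4 in the traced library. The pericyte markers summed to 256.2 and 126.1 CPM in the cluster, of which Vtn alone gave 186 and 124. The part of such RNA in the C3 level was not tested. A group of 86 non-traced cells led by S100a9 and S100a8 held 19 C3 UMIs, 13 of them in 1 cell. Its level was 29.8 CPM (17.9 to 46.5), and 10.2 CPM without that cell.

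C4b encodes the C4 protein that the C1 and lectin proteases cleave. It lies at chr17:34728380-34743882 (minus strand), 112491 bases from Cfb and 65209 from its near copy C4a, with which it shares 38.14% of the 50-base windows in the last 500 bases of its transcript, so part of its reads could be split or dropped. Venous-like cells held 84 of the 96 C4b UMIs of endothelial-like cells (2.95 CPM, 2.35 to 3.65). The other endothelial-like cells held 12 (0.0819 CPM), a ratio of 36.0 (19.6 to 72.4) that stayed under the 10 CPM minimum. Capillary-like cells were at 0.099 CPM, arterial-like cells at 0.044 CPM (2 UMIs), and pericyte-like cells at 0 UMIs, whose floor is 3.61 CPM. Ependymal-like cells were at 1.40 CPM (0.723 to 2.44) in the non-traced and 1.03 (0.754 to 1.37) in the traced library, intervals that overlap each other, and the first overlaps the venous-like one.

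Of the 84 venous-like UMIs, 60 came from 113 cells. This sub-cluster carried all 11 venous markers, was led by Lrg1, Ackr1, Cd14, Lcn2 and Selp, and is called Ackr1-high here, a choice made after its values were seen. Ackr1 is the atypical chemokine receptor of venules and Selp is P-selectin, which tethers leukocytes. Ackr1, Selp and Lrg1 were at 657, 117 and 995 CPM in it, against 4.2, 0.4 and 5.2 CPM in the other 2455 venous-like cells. Its cells had a median of 8133 UMIs, against 7218 in the library.

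C4b reached 49.5 CPM (37.8 to 63.7) in the Ackr1-high cells against 0.88 (0.564 to 1.31, 24 UMIs) in the other venous-like cells, a ratio of 56.3 (34.5 to 94.5). Its UMIs were spread over 31 of the 113 cells with at most 7 in a cell, and after thinning 5.31% (1.97 to 11.2) of the cells held one against 0.0815% of the others. With 0.445% of the library's cells, the sub-cluster held 41.7% of its C4b UMIs. Fibroblast-like cells followed at 17.6 CPM with 7 UMIs, and astrocyte-like cells at 9.51 CPM with 3.

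Cfb, the protease precursor of the alternative pathway, lies at chr17:34856374-34862518 (minus strand), with its neighbour C2 ending 85 bases away. Of its 53 UMIs, 25 were in venous-like, 15 in arterial-like and 8 in capillary-like cells. The Ackr1-high cells held 10 Cfb UMIs in 9 cells, or 8.25 CPM (3.96 to 15.2), against 15 UMIs (0.55 CPM) in the other venous-like cells, a ratio of 15.0 (6.03 to 35.7). Venous-like cells together were at 0.877 CPM, arterial-like cells at 0.33 and capillary-like cells at 0.0792, with no overlap between these 3 intervals. Arterial-like sub-cluster 9 alone was at 0.868 CPM (8 UMIs). No Cfb UMI was read in the ependymal-like cells of either library, which allows up to 0.35 CPM in the non-traced and 0.0655 CPM in the traced cells, nor in pericyte-like cells.

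The Ackr1-high cells also stood apart in the regulators. Of the 7 genes 4 reached 10 CPM and could be compared. Of these, 3 were called higher there than in the other venous-like cells (C4b, Cd55 and Clu) and none lower. In this comparison 4.27% of the 8610 genes tested were higher and 2.5% lower, and 4 members are too few to set against those shares. Cd55 was at 36.3 CPM (26.4 to 48.7) against 8.32 (7.27 to 9.48), a ratio of 4.36 (3.08 to 6.05). Clu was at 52.8 CPM (64 UMIs in 30 cells) against 5.24, a ratio of 10.1 (7.38 to 13.6). Serping1 was at 5.77 CPM (7 UMIs in 7 cells) against 0.183 (5 UMIs), a ratio of 31.5 (8.61 to 126) under the 10 CPM minimum. This Serping1 level is 0.491% of that in fibroblast-like cells (1177 CPM). The fibroblast markers stood at 0% to 0.456% of theirs (median 0.00157%), and the part of fibroblast RNA was not tested. Cd59a moved the other way without a call, at 139 CPM (119 to 162) against 207 (202 to 213).

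Before thinning and with cell depth not matched, 14 Ackr1-high cells held both C4b and Cd55, which is 45.2% of the cells with a C4b UMI, while Cd55 was in 22.0% of the cells without one. C4b and Cfb shared 2 cells. Of the wider complement list, described further on, C1ra, a protease of the C1 complex, was called higher at 12.4 CPM against 2.09, as was the scavenger collectin Colec12 at 11.5 against 1.43. In these cells a summed list of inflammatory genes was at 10256 CPM against 4341 in the other venous-like and 1555 in capillary-like cells, and a list of genes induced by tissue dissociation was lower, at 21522 CPM against 28710. Capillary markers summed to 1973 CPM against 4794, and erythrocyte markers to 874 CPM against 18.4 in the other venous-like and 1386 in capillary-like cells. The part of any of these in the complement levels was not tested.

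**Figure D2:**
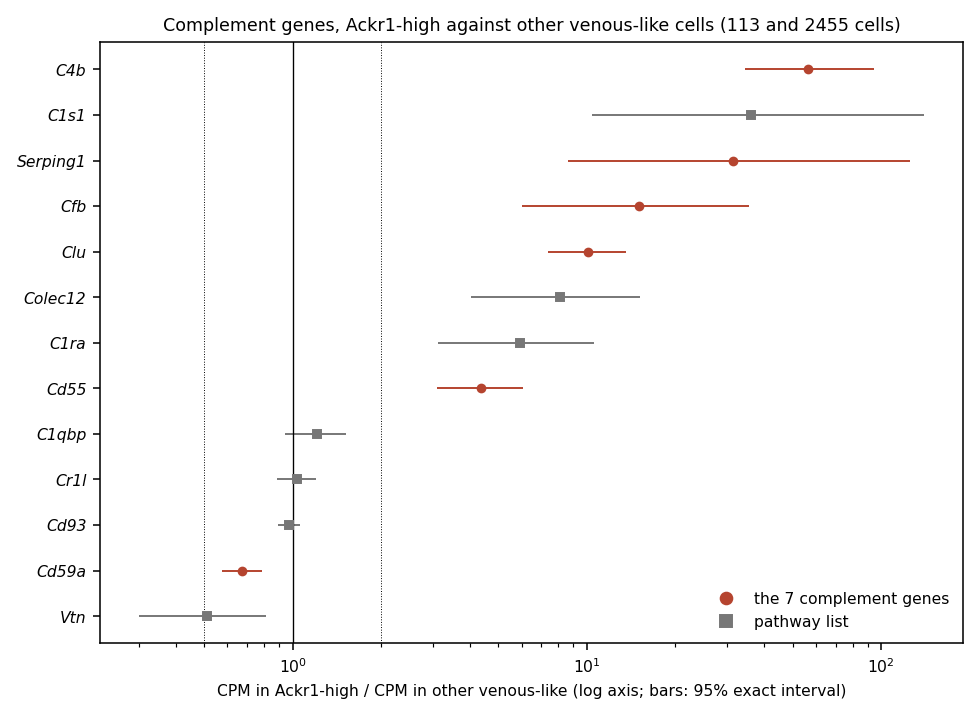
Ratio of the level in the 113 Ackr1-high cells to that in the 2455 other venous-like cells on a log axis, for members with UMIs in both (circles) and genes of the wider list at 5 CPM or more (squares), with 95% exact intervals; dotted lines mark a 2-fold difference. C4b has the highest ratio, 56.3, and Cd59a lies below 1 at 0.673.

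Venous-like cells as a whole differed from other endothelial-like cells by the rule in 1 member, Clu, which was lower at 7.27 CPM against 53.5 (1.55% of 8398 genes were lower and 1.32% higher). Only 2 members reached 10 CPM there and could be compared. Capillary-like cells were as low for Clu, at 6.84 CPM (6.34 to 7.37), an interval that overlaps the venous-like one (6.31 to 8.33). Arterial-like cells were at 157 CPM. In venous-like against other endothelial-like cells Cd55 was at 9.51 against 5.28 CPM, a ratio of 1.80 (1.56 to 2.07). Cd59a was at 204 against 228 CPM, a ratio of 0.897 (0.873 to 0.923). Serping1 gave a ratio of 1.76 (0.833 to 3.48) on 12 and 35 UMIs. No endothelial sub-cluster carried enough of the 10 interferon-high markers to be named so (at most 3 of them), and that comparison has no value.

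Clu was the member that set arterial-like cells apart from the rest of the endothelium. It lies at chr14:65968483-65981547 on the plus strand. Arterial-like cells held Clu at 157 CPM (153 to 161) against 6.93 in the other endothelial-like cells, a ratio of 22.7 (21.1 to 24.3). It was the 1 call among the 7 members, of which 2 reached 10 CPM and could be compared. In this comparison 2.67% of 8433 genes were higher and 1.29% lower. Cd55 and Cd59a gave ratios of 0.988 (0.857 to 1.14) and 1.001 (0.979 to 1.02).

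Clu was not even along the arterial-like cells. It was at 17.0 CPM in sub-cluster 7 (1171 cells), 43.0 in sub-cluster 6 (1556 cells), 305 (293 to 318) in sub-cluster 10 (860 cells) and 425 (412 to 439) in sub-cluster 9 (895 cells). In sub-cluster 9, 602 of the 895 cells held a Clu UMI, or 30.4% after thinning. Sub-clusters 9 and 10 together were at 369 CPM against 27.9 in sub-clusters 6 and 7, a ratio of 13.2 (12.3 to 14.3), with 2.19% of 8495 genes higher by the rule and 0.365% lower. Sub-cluster 9 carried Mgp (matrix Gla protein) at 2632 CPM, the elastic fibre gene Fbln5 at 254.5 and the large-artery connexin Gja5 at 37.0, and sub-cluster 10 carried Pi16 at 239. No other member was called between these sub-clusters.

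Ependymal transcripts were present at trace levels in the endothelial-like cells. In sub-cluster 9 Clu stood at 11.6% of its non-traced ependymal-like level, whereas the 10 ependymal markers stood at 0% to 0.214% of theirs. In capillary-like cells Clu stood at 0.187% of its ependymal-like level, inside the range of those markers there (0.094% to 0.281%). Among the cells of sub-cluster 9 before thinning, the ependymal gene Tmem212 was in 1.33% of those with a Clu UMI and in 2.73% of those without.

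The ependymal-like cells carried 2 of the regulators at high levels. Clu was at 3666 CPM (3626 to 3707) in the non-traced cells, where 1150 of 1152 cells held a UMI, and at 3948 CPM (3930 to 3967) in the traced cells, where 4749 of 4755 did. Cd55 was at 157 CPM (149 to 166) in the non-traced and 220 CPM (216 to 224) in the traced cells, with a UMI in 15.0% and 18.8% of thinned cells. In capillary-like cells, whose median was 6258 UMIs against 7064 and 8564 in the ependymal-like cells, these shares were 0.624% for Clu and 0.539% for Cd55, against 94.1% and 96.1% for Clu in the ependymal-like cells. Against endothelial-like cells of the same library, Clu was 79.8 times (77.8 to 81.8) and Cd55 26.4 times (24.3 to 28.6) higher. Cd59a was lower, at 57.2 CPM against 224, a ratio of 0.256 (0.233 to 0.279). Of the 7 members only these 3 reached 10 CPM and could be compared, and all 3 were called. In this comparison 27.2% of 10515 genes tested were higher and 19.6% lower, and 3 members are too few to set against those shares. C3 (189 times higher, 67.8 to 729) and Serping1 (18.2 times higher, 11.7 to 28.2) stayed under the 10 CPM minimum.

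Cd55 lies at chr1:130439027-130462744 on the minus strand, 16017 bases from Cd55b, and its last 500 transcript bases share no 50-base window with that copy. The 250 bases before its RefSeq start in GRCm38.p6 (chr1:130462745-130462994, minus strand) are given because its level set ependymal-like cells apart from every endothelial-like group:

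Cd55: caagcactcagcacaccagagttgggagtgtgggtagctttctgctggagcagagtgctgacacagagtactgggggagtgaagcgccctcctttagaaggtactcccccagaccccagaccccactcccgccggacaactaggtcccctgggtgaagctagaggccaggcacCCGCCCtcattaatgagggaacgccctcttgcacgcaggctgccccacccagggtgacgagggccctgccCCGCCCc

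The capitals mark the GC box read on the opposite strand, 77 to 72 and 7 to 2 bases before the start, a motif held by 32.74% of all promoters of that length. None of the other 7 motifs was in this window, the RFX core included.

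Cd55 ran from 129 to 272 CPM among the ependymal-like clusters given here. In the traced library, its level in clusters 6, 7, 9, 15 and 17 lay between 202 and 233 CPM, with 169 in the Ucma-high cluster and 272 (229 to 321) in cluster 19, a cycling cluster of 36 cells. In the non-traced library it was 129 CPM in the Ucma-high and 170 in the other cells. Clu ranged from 2313 CPM in cluster 19 to 4363 in cluster 17 of the traced library. The lowest of these Cd55 values, 129, lay above the highest endothelial-like one, 36.3 in the Ackr1-high cells. The 723 cells with endothelial and ependymal markers were between, at 82.1 CPM for Cd55 and 1780 for Clu. Astrocyte-like cells (37) held Clu at 2196 CPM.

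Traced and non-traced ependymal-like cells held the abundant members at similar levels. No member was called between them, and 3 reached 10 CPM and could be compared. Of all genes tested, 0.762% of 9578 were higher and 1.32% lower in the traced cells. Clu gave a ratio of 1.08 (1.06 to 1.09), Cd55 of 1.40 (1.32 to 1.48) and Cd59a of 1.03 (0.936 to 1.14), traced over non-traced. C4b gave 0.734 (0.383 to 1.52) and Serping1 0.625 (0.44 to 0.904), a direction that turned with no integration (3.05 CPM traced against 1.83 non-traced). C3 gave 0.116 (0.0661 to 0.201), that is, 8.59 times (4.97 to 15.1) higher in the non-traced cells, under the 10 CPM minimum. The Ucma-high cluster made up 369 of 1152 non-traced but 193 of 4755 traced ependymal-like cells. Within that cluster C3 was at 4.49 CPM in the traced against 12.8 in the non-traced cells, a ratio of 0.35 (0.147 to 0.744) that met the rule, as it did downward for 1.31% of 9725 genes and upward for 1.63%. Within the other cells the levels were 0.32 and 0.506 CPM on 14 and 3 UMIs. Being single libraries from separate gates, library and gate cannot be told apart.

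**Figure D3:**
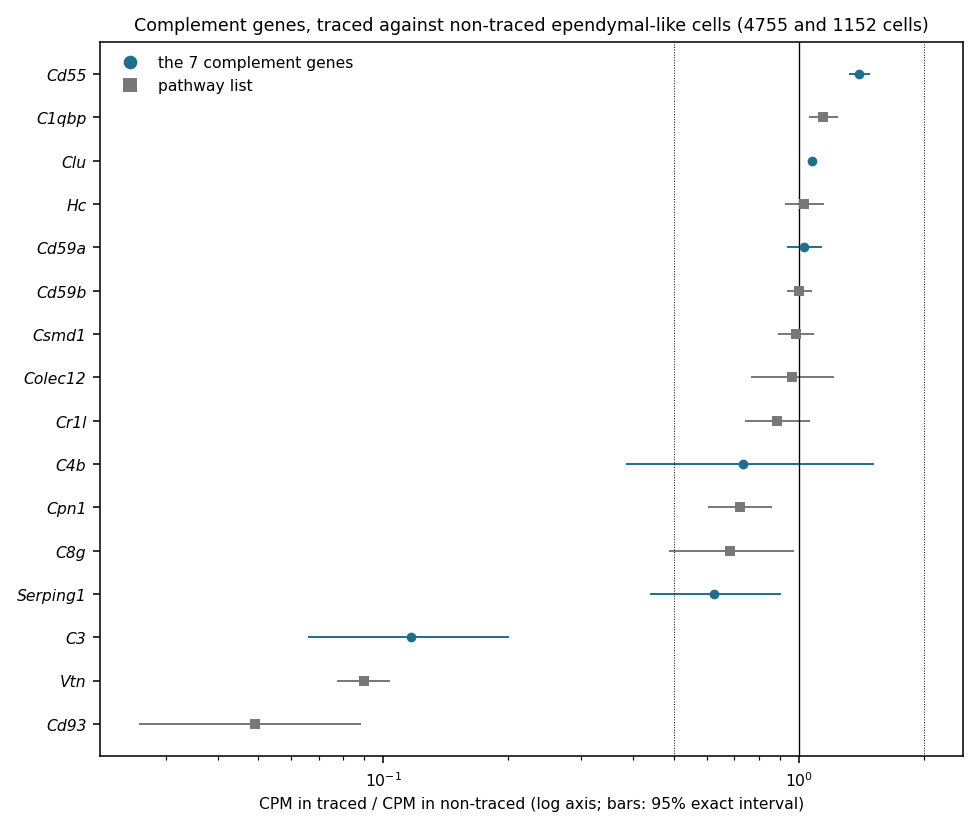
Ratio of the level in the 4755 traced to that in the 1152 non-traced ependymal-like cells on a log axis, for members with UMIs in both (circles) and genes of the wider list at 5 CPM or more (squares), with 95% exact intervals; dotted lines mark a 2-fold difference. Clu, Cd59a and Cd55 lie between 1.03 and 1.40, and C3 lies at 0.116.

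Cd59a had the opposite distribution to Cd55. It lies at chr2:104095801-104115354 on the plus strand, 4613 bases downstream of Cd59b, its paralog with the same function. Endothelial-like cells held it evenly: 229 CPM (226 to 232) in capillary-like, 224 (220 to 229) in arterial-like and 204 (199 to 210) in venous-like cells, the first pair overlapping. Across the endothelial sub-clusters that were compared it ran from 184 CPM (sub-cluster 9) to 255 (sub-cluster 4), apart from 139 in the Ackr1-high cells. Ependymal-like cells were at 57.2 (52.3 to 62.5) and 59.0 CPM (56.8 to 61.3) in the non-traced and traced library, intervals that overlap. Pericyte-like cells were lowest at 30.1 CPM (19.5 to 44.5, 25 UMIs). The 48 traced endothelial-like cells held 165 CPM (131 to 205).

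The 250 bases before the RefSeq start of Cd59a in GRCm38.p6 (chr2:104095551-104095800, plus strand) are shown because Cd59a was the member highest in endothelium:

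Cd59a: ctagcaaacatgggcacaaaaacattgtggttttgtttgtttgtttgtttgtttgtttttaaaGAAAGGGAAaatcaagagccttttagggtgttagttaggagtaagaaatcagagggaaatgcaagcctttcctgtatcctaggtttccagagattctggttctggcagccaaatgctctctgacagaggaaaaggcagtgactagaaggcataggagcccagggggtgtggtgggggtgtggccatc

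The capitals mark the one match, to the interferon-stimulated response core GAAANNGAA 187 to 179 bases before the start, letters held by 7.129% of all promoters of that length. The ETS core CCGGAA, present in 12.03% of them, was not in this window.

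Cd59b, which belongs to the wider list, was at 118 CPM in both the non-traced and traced ependymal-like cells (ratio 1.003, 0.938 to 1.07) and at 2.05 CPM in endothelial-like cells, 57.7 times lower. Thus the 2 neighbouring genes for the same pore inhibitor were high in different cell types, with Cd59a above Cd59b in endothelial-like cells and below it in ependymal-like cells. These are UMI levels from 3′ ends and are not divided by transcript length. The last 500 transcript bases of Cd59a share no 50-base window with Cd59b, while 13.75% of the windows of Cd59b are found in Cd59a. In the traced ependymal-like cells before thinning, 65.1% of those with a Cd59a UMI also had Cd59b, against 53.8% of those without.

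Cd59a was called lower in the Ucma-high cluster of each library. It was at 26.0 CPM against 71.2 in the other cells of the non-traced library (ratio 0.366, 0.279 to 0.473) and at 19.9 against 60.8 in the traced library (0.328, 0.234 to 0.448), calls that 2.36% and 2.35% of genes met downward (2.77% met the rule upward in the traced library). Cd59b was not called, at 74.7 against 137 CPM (ratio 0.544, 0.464 to 0.636) and at 65.8 against 121 CPM (0.545, 0.455 to 0.648). Cd55 and Clu were less apart, with ratios of 0.759 and 0.844 in the non-traced and 0.763 and 0.898 in the traced library.

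Endothelial transcripts were also present in the ependymal-like cells. Their Cd59a stood at 25.6% and 26.3% of the endothelial-like level in the non-traced and traced library, whereas the 10 endothelial markers stood at 1.19% to 5.88% and 0.059% to 4.68% of theirs. Ependymal-like cells with at most 1 endothelial-marker UMI (346 and 4546 cells) held Cd59a at 49.4 and 57.2 CPM.

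**Figure D4:**
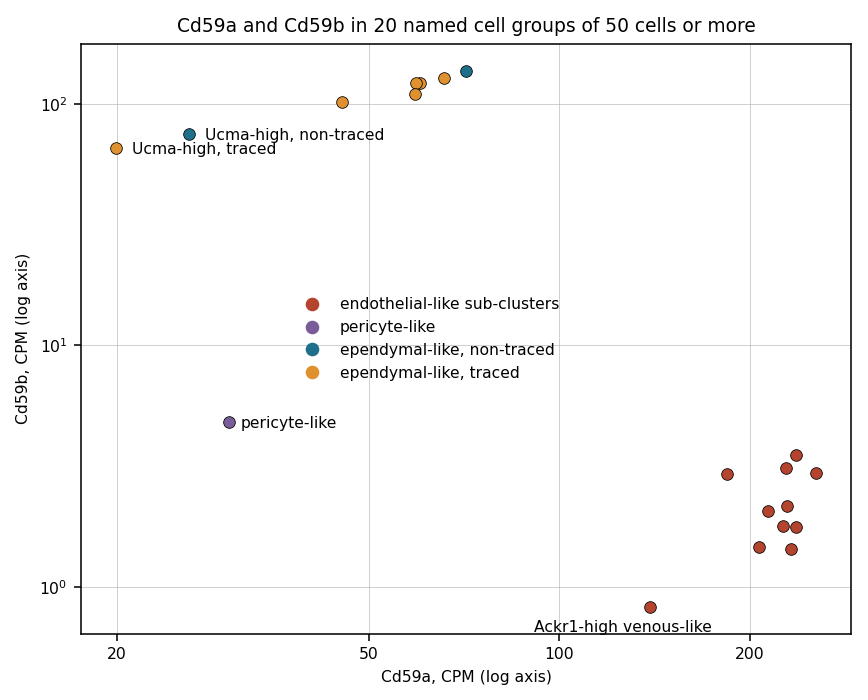
Cd59a against Cd59b, both in CPM on log axes, 1 point for each of 20 cell groups (the named endothelial sub-clusters, pericyte-like cells and ependymal-like clusters of 50 cells or more), coloured by cell type and library. Endothelial-like groups lie at the lower right, with Cd59a from 139 to 255 CPM and Cd59b under 5, ependymal-like groups at the upper left with Cd59b above 60, and pericyte-like cells are low for both.

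Serping1, whose product inhibits the C1 proteases as well as kallikrein, was highest in pericyte-like cells among the 6 classes compared. It lies at chr2:84765387-84775444 on the minus strand. Pericyte-like cells were at 51.8 CPM (37.5 to 69.8), with 43 UMIs in 37 of 199 cells and at most 3 in a cell. Endothelial-like cells were at 0.269 CPM (47 UMIs in 20029 cells), a ratio of 193 (125 to 298). Cells with endothelial and pericyte markers were at 14.5 CPM (12.8 to 16.5). The 330 cells that also had smooth muscle markers were at 83.0 CPM (75.1 to 91.6), with a UMI in 226 of them. Non-traced and traced ependymal-like cells held 4.90 (3.53 to 6.62) and 3.06 CPM (2.57 to 3.61), overlapping each other, and venous-like, arterial-like and capillary-like cells held 0.421, 0.264 and 0.228 CPM, overlapping as well.

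Serping1 was far higher in the 32 fibroblast-like cells, at 1177 CPM (1073 to 1288), with a UMI in all 32. Fibroblast markers summed to 32742 CPM in those cells and to 274.7 in pericyte-like cells. Serping1 in pericyte-like cells stood at 4.40% of its fibroblast-like level, within the range of the fibroblast markers there (0% to 7.41%, median 0.177%), and the part of fibroblast RNA in the pericyte-like level was not tested beyond these values. In non-traced ependymal-like cells Serping1 stood at 9.45% of the pericyte-like level, where the pericyte markers stood at 0% to 0.35% of theirs.

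In pericyte-like against endothelial-like cells, Serping1 was called higher and Cd59a lower (30.1 against 224 CPM, a ratio of 0.135, 0.087 to 0.199). With the 2 mixed mural groups added to the pericyte-like cells, Cd59a was at 154 CPM and the call was lost. In pericyte-like against endothelial-like cells 15% of 9425 genes tested were higher and 15.4% lower. Of the 7 members 3 reached 10 CPM and could be compared, and 2 were called, too few to set against those shares. Cd55 was at 1 UMI in pericyte-like cells, with a ratio of 0.202 (0.00511 to 1.13). Clu was at 39.8 CPM there against 46.0, but 26 of its 33 UMIs came from 1 cell, and without that cell its level was 8.50 CPM. Cd59a in pericyte-like cells stood at 13.5% of its endothelial-like level, close to the median of the endothelial markers there (13.2%). In the 41 pericyte-like cells with at most 3 endothelial-marker UMIs, no Cd59a UMI was read, which allows up to 25.4 CPM, while Serping1 was at 59.3 CPM. The part of endothelial RNA in the Cd59a level of pericyte-like cells was not tested beyond these values.

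The wider list held 52 other complement genes, of which 34 had a row and 18 were not analysed here. In pericyte-like cells 3 of the 7 that could be compared were called higher than in endothelial-like cells and 2 lower. Of all genes tested there, 15% were higher and 15.4% lower, and 7 genes are too few to set against those shares. C1s1, the C1 protease that Serping1 inhibits, was at 32.5 CPM against 0.251 in endothelial-like cells. Colec12 was at 276 against 2.15, and Vtn, vitronectin, was also higher but served as a pericyte naming marker. Cr1l, the rodent membrane regulator of C3 convertases, was at 60.2 against 155 CPM, and the endothelial lectin Cd93 at 39.8 against 425.

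In non-traced ependymal-like cells, 5 of the 10 genes of the wider list that could be compared were called higher than in endothelial-like cells. Of all genes tested there, 27.2% were higher and 19.6% lower. Hc, the gene of C5, was at 46.4 CPM against 0.0229. Csmd1, a large membrane protein that restrains complement, was at 57.1 against 0.0686, and Cpn1, a carboxypeptidase that trims anaphylatoxins, at 18.8 against 0.0114 (2 UMIs). Cd59b and Colec12 (10.6 against 2.15) were the others. Cr1l (17.5 against 155) and Cd93 (6.64 against 425) were lower.

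Traced ependymal-like cells kept these levels for Hc (47.9 CPM), Csmd1 (56.2) and Colec12 (10.2). Of 8 genes compared with the non-traced cells only Vtn was called, at 5.88 against 65.4 CPM. Most Vtn UMIs lay in the Ucma-high cluster of each library, which was a larger share of the non-traced ependymal-like cells. Within that cluster Vtn was at 124 CPM in the traced against 186 in the non-traced cells. No gene of the wider list was called there. Within the other ependymal-like cells Vtn was at 0.457 against 11.6 CPM. In the Ucma-high cluster of the non-traced library Vtn (186 against 11.6) and Cpn1 (29.4 against 14.0) were higher than in the other ependymal-like cells, and in the traced library Vtn was (124 against 0.457). Cpn1 gave a similar ratio there without a call, 2.04 (1.51 to 2.71) at 26.4 against 12.9 CPM, as 2.10 (1.52 to 2.90) in the non-traced library. In the S100a9-led group a few cells held the C1q genes, 8 of 86 for C1qa and 9 for C1qb and C1qc, which put the group at 370 (C1qa), 442 (C1qb) and 295 CPM (C1qc), along with 8 cells each for the anaphylatoxin receptors C3ar1 (62.7) and C5ar1 (61.2). In non-traced ependymal-like cells the 3 C1q genes lay between 0.82 and 1.52 CPM.

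Over 20 points, namely the named endothelial sub-clusters, the pericyte-like cells and the ependymal-like clusters of 50 cells or more (the unnamed endothelial sub-cluster, the mixed groups and the S100a9-led group were left out), the genes whose log2(CPM + 1) was most like each member's were as follows, with Pearson's r given as a description over points that share libraries. C3 was most like Irx1 (0.954) and Irx2 (0.951), and then Ucma (0.941). C4b was most like Ackr1 (0.962), Cfb like Ptgs1 (0.966) and Serping1 like Colec12 (0.954). Cd55 was most like Rasa4 (0.989) and Sema3e (0.985), Cd59a like Rnf115 and S1pr1 (both 0.963), and Clu like Fhl1 (0.994).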

How the data were processed

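Both libraries were deposited by the authors as whole-number UMI counts per gene and cell. Per the labels and the submitters' processing notes they were made with Cell Ranger 3.0.2 and STAR 2.5.1b on mm10 with a tdTomato-WPRE sequence added. The cells are as deposited, with no further filter.

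Here the counts were normalised per cell and integrated with Seurat 5.3.0 (2000 anchor features, 20 components, resolution 0.8), in R 4.3.3. Clusters were named, per library, from the lists where at least 3 markers supported them. These naming thresholds were set after the clusters were seen, and a rebuilt name may differ from the study's. Endothelial cells were clustered again for arterial, capillary and venous names. Scrublet marked 2170 of 25411 non-traced cells and none of 4825 traced cells, so that doublets in the traced library were not assessed. Doublets were kept here and left out as an alternative. UMIs were then summed per group with Python 3.11.15, numpy 2.4.6, scipy 1.17.1 and pandas 2.3.3. Levels carry exact Poisson intervals, shares Clopper-Pearson intervals and ratios exact conditional binomial intervals, all at 95%. A count of 0 is given with the level of 3 counts. PCR duplicates are removed by UMIs, but intervals and floors cover counting error only. With 1 library a group, no p-value was computed. The calls and the intervals, but not the summing over cells, were tested on simulated counts that held counting error only.

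The members and all lists were chosen with earlier results of these data known. Genes of the wider list are named from the 20 that reached 10 CPM in a group of at least 50 cells. Of these, Cfp, Itgam, Itgb2 and C1qbp are not described above. Like genes are the 3 with the highest correlation among those reaching 20 CPM. Start regions and positions are from RefSeq and the GRCm38 annotation. Alternatives covered the pseudocount, minimum level, scaling, integration, naming, features, doublets, cell filter, thinning and sub-clustering. One gene of the wider list is not reported here.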

Additional observations from a re-analysis of the deposited data

How the results depend on the processing

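With no minimum level, 2 members in place of 1 were 2-fold apart in venous-like cells (C4b added), 5 in place of 3 in ependymal-like against endothelial-like cells (C3 and Serping1 added) and 1 in place of 0 between traced and non-traced ependymal-like cells (C3). That last count was also 1 with no integration, where 488 non-traced cells were ependymal-like and C3 was at 10.98 against 0.50 CPM. Adding the 2 mixed mural groups to the pericyte-like cells (1771 cells), an alternative chosen after seeing the data, left 1 member in place of 2, Serping1 at 30.2 CPM, with Cd59a at 154. Each of these counts follows from the genes or cells that the alternative admits. The remaining counts stayed within 1.5 times of the reported ones under the alternatives run, and no called member reversed. Without integration the Serping1 difference between traced and non-traced ependymal-like cells changed sign (3.05 against 1.83 CPM) and no pericyte-like class could be named. No setting gave an interferon-high class. C4b in the Ackr1-high cells ranged from 33.7 to 53.5 CPM over the settings. Of the single levels 177 stayed inside their interval and 26 did not, and of the single log2 differences 309 did and 100 did not; of the shares of cells 9 stayed and 33 rose above it without thinning. No paired analysis was possible because each group is 1 library. C3, C4b and Cfb rest on at most 144 UMIs a library, and a count of 0 in the 199 pericyte-like cells allows up to 3.61 CPM.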
